A study of Mus musculus with 24 samples.

Results

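The comparison was between Esam-hi CD11b+ dendritic cells from Flt3 ITD/+ mice and the same sorted cells from Flt3 +/+ mice, across all genes. It used 4 of the 24 RNA-seq libraries of the series, 2 of each genotype, chosen by their sorted subset and genotype and paired by experiment batch (C and D), so that each batch gave 1 library of each genotype. All cells came from the spleens of C57BL/6 x FVB/N F1 mice, and both genotypes shared this background. Flt3 ITD/+ mice carry 1 allele with an internal tandem duplication and 1 normal allele. The sources used here do not give ages, sexes, the number of mice behind a library or the limits of the sort gates. The other 20 libraries held Esam-lo CD11b+ cells, canonical CD8+ cells, non-canonical CD8+ cells and plasmacytoid cells (labelled PDC) of the same 2 genotypes. The series asked how this leukemia-associated mutation affects dendritic cells, and the replicates came from independent experiments.

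Flt3 is a receptor tyrosine kinase whose ligand drives the development and upkeep of dendritic cells. An internal tandem duplication in its juxtamembrane part, common in acute myeloid leukemia, makes the receptor signal without ligand, through STAT5, MAP kinase and AKT pathways. Esam-high CD11b+ cells are a splenic class of conventional dendritic cells that depends on Notch2 signalling, sits mainly in the marginal zone and presents antigen to CD4+ T cells on MHC class II. When such cells mature they raise costimulatory molecules, chemokines and cytoskeletal proteins and move to T cell zones.

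The labelled subset was checked against its markers. Levels are given throughout in CPM (a gene's counts per 1000000 counts of its library), in the order +/+ batch C, +/+ batch D, ITD/+ batch C, ITD/+ batch D. Esam, an endothelial cell-selective adhesion molecule, stood at 69.2, 56.4, 68.8 and 59.9 CPM, against 4.03 to 13.7 CPM in the +/+ Esam-lo libraries. Dtx1, a Notch target gene, stood at 271, 306, 221 and 236 CPM, against 39.6 to 99.7 CPM in +/+ Esam-lo cells. Tbx21, encoding the transcription factor T-bet, stood at 63.9, 108, 46.7 and 60.9 CPM, against 22.2 to 44.9 CPM. All 4 libraries were thus above the +/+ Esam-lo range for these genes, as the label requires. Itgam, encoding CD11b, stood at 196, 160, 189 and 134 CPM, close to the 183 to 206 CPM of +/+ Esam-lo cells; 66.3% of the 50-base words of its transcripts also occur in the gene model Gm49368, so its counts are uncertain. None of these markers passed the test between genotypes, with log2 fold changes of 0.05 for Esam, -0.33 for Dtx1, -0.63 for Tbx21 and -0.14 for Itgam.

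**Figure D1:**
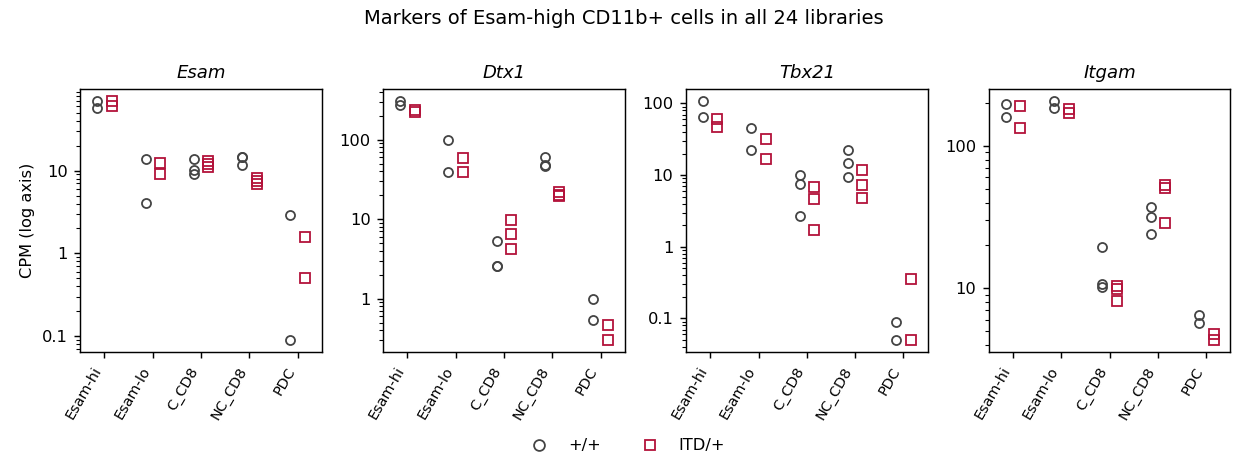
Levels of the 4 markers in CPM (log axis) in each of the 24 libraries, by sorted subset; circles are +/+ and squares ITD/+ libraries, and a value of 0 is drawn at 0.05. The Esam-hi libraries lie between 56.4 and 69.2 CPM for Esam, and the +/+ libraries of the other subsets at or below 14.6 CPM.

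The 4 libraries held 16161616 to 17689913 counts (11197145 to 22248404 over the series), with 1.21% to 1.49% mitochondrial counts. All 4 had a male pattern of expression, although the sexes are not given. Xist, the gene of the inactive X chromosome, had 0 reads, and the Y-linked gene Ddx3y stood at 307.5, 379.4, 300.7 and 331.5 CPM. Some transcripts of other cell types followed the batch and others the genotype. Hba-a1 (haemoglobin) stood at 37.7, 5.32, 32.1 and 0.968 CPM, and Slc40a1, the iron exporter of red pulp macrophages, at 51.4, 4.83, 46.4 and 2.48 CPM. Over 12 NK cell genes, 8 were lower in ITD/+ cells at an unadjusted p under 0.05 (against 2.49% of all genes) and 0 passed the test. Their median log2 fold change was -2.17, with -1.83 in batch C and -1.12 in batch D, the lowest median of all lists, while their summed level was 183, 152, 144 and 162 CPM. Both ITD/+ libraries lay below both +/+ libraries for 4 of the 12 (15.8% of all genes). Klrb1c, an NK cell receptor gene, was 1 of them, at 3.53, 1.42, 0.961 and 0.182 CPM. Other NK cell genes overlapped, with +/+ batch D below ITD/+ batch C. Ncr1 stood at 8.22, 0.309, 0.791 and 0.182 CPM, and Gzma at 4.80, 0.557, 0.622 and 0.061 CPM. The summed level of 10 neutrophil genes was 146, 110, 60.5 and 31.2 CPM, most of it from Mmp9. Other neutrophil genes did not share the genotype difference of Mmp9. S100a8 stood at 6.77, 0.309, 6.1 and 0 CPM and S100a9 at 10.1, 0.124, 8.9 and 0.061 CPM, so both followed the batch. Ngp had 0, 0, 46 and 5 reads. The neutrophil marker Ly6g and the stromal genes Col3a1 and Dcn had 0 reads in all 4 libraries. The part of these transcripts in the results that follow was not tested. In sorted bulk samples, fewer cells of a type and less RNA per cell cannot be told apart.

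Few genes separated the genotypes in these cells. In edgeR's quasi-likelihood test with a term for each pair of libraries, 9 of 18093 genes (0.0497%) had a Benjamini-Hochberg adjusted p under 0.05, of which 8 rose in ITD/+ cells (0.0442%) and 1 fell (0.00553%). The 8 that rose were Tmem123, Fscn1, Kdr, Cdh2, Nlrc5, Gtf2a1, Casp6 and Repin1, and each was higher in ITD/+ cells in both pairs. At an unadjusted p under 0.05 there were 1125 genes (6.22%), 675 of them higher (3.73%) and 450 lower (2.49%). Over 11111 genes with a mean of at least 5 CPM, the genotype difference had an SD of 0.30 (log2) in batch C and 0.34 in batch D, while the difference between batches had an SD of 0.41 in +/+ and 0.38 in ITD/+ cells. The differences between batches were thus spread more widely than those between genotypes. Across those genes the genotype differences of the 2 pairs correlated at Pearson's r = 0.34, given as a description, since genes are not independent replicates. Without the pair term 0 genes passed (303 at an unadjusted p under 0.05), and with either pair left out 0 passed (552 to 991 unadjusted).

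**Figure D2:**
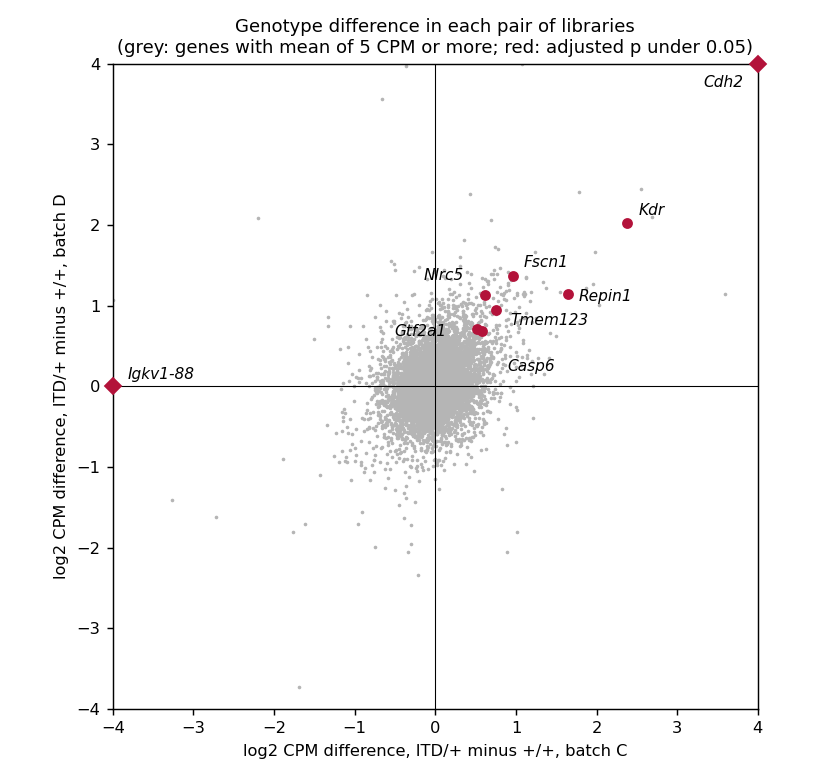
Genotype difference (log2 CPM, ITD/+ minus +/+) in the batch C pair (x axis) against the batch D pair (y axis). Grey points are genes with a mean of at least 5 CPM, red points the 9 genes with an adjusted p under 0.05, and values past 4 are drawn at the edge (diamonds for Cdh2 and Igkv1-88); the 8 genes that rose lie in the upper right, and Igkv1-88 lies at 0 in batch D.

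Genes of dendritic cell maturation led the list. Fscn1 encodes fascin, the actin-bundling protein of the long processes of mature dendritic cells (chr5:142960343-142973185, plus strand, build GRCm38). It stood at 154, 199, 297 and 512 CPM. Both ITD/+ libraries lay above both +/+ libraries. The rise was 1.17 ± 0.12 (log2 fold change ± SE, n = 2 pairs, edgeR adjusted p = 0.00672), with 0.97 in batch C and 1.36 in batch D. Here and below the SE comes from the fit over all 24 libraries, not from the spread of these 2 pairs alone. Tmem123 encodes porimin, a mucin-like surface protein (chr9:7764041-7794333, plus strand). It stood at 885, 1229, 1468 and 2370 CPM. The ITD/+ libraries were again the upper ones, and within each genotype batch D was higher than batch C. The rise was 0.85 ± 0.08 (adjusted p = 0.00548), the smallest p of all genes.

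The bases upstream of the transcription start are shown for Fscn1 and Kdr, the genes with the largest fold changes among the 5 of 9 called genes that have a window in the RefSeq promoter table (build GRCm38.p6). Each run is the 250 bases before the start, 5′ to 3′ on the gene's strand: chr5:142960105-142960354 (plus strand) for Fscn1 and chr5:75978456-75978705 (minus strand) for Kdr. Capitals mark letters that match 1 of 6 motifs searched on both strands.
Fscn1: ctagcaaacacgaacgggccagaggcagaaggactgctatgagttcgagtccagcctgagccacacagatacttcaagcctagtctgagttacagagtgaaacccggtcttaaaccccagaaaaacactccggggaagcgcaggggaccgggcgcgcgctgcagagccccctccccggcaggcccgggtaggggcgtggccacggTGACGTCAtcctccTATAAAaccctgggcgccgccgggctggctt
Kdr: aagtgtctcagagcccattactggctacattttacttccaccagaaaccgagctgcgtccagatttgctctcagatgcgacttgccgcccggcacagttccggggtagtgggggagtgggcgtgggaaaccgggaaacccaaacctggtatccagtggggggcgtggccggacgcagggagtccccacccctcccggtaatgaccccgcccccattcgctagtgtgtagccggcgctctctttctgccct
The Fscn1 window holds the cAMP response element TGACGTCA, found in 1.55% of 32851 RefSeq promoter windows of this length, and the TATA box TATAAA, found in 12.4%. These 2 motifs and the E-box CACGTG (6.02%) were added after the sequences were seen. None of the windows of the 5 called genes holds the STAT motif TTCNNNGAA (7.02% of all windows) or the core of the interferon-stimulated response element, GAAANNGAA (7.13%). A shortened NF-kB motif, GGNNTTTCC (4.93%), matched once, in a window of Gtf2a1. A match describes letters only, and a missing match says only that these letters are not in this window. Nlrc5, Repin1, Cdh2 and Igkv1-88 had no entry.

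The 2 largest rises were of surface proteins at low starting levels. Cdh2 encodes N-cadherin, a calcium-dependent adhesion molecule (chr18:16588877-16809246, minus strand). It had 1 read in the 2 +/+ libraries together and 608 in the 2 ITD/+ libraries, which is 0.058, 0, 14.3 and 21.5 CPM. The ratio of the pooled reads, scaled to library size, was 594, with a 95% counting interval of 106 to 23510 that covers counting error only. The test gave an adjusted p of 0.0171. Kdr encodes VEGF receptor 2 (chr5:75932827-75978458, minus strand) and stood at 1.39, 2.10, 7.63 and 8.96 CPM. The groups did not overlap, and the rise was 2.26 ± 0.27 (adjusted p = 0.0149). Kdr was also on a list of stromal and endothelial markers, whose other 9 tested members did not pass. Tek, a second endothelial receptor of that list, had 0 reads in all 4 libraries, and the list's summed level, Kdr included, was 6.31, 5.32, 14.7 and 13.8 CPM.

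Nlrc5 encodes the transactivator of MHC class I genes (chr8:94434356-94527272, plus strand). It stood at 58.5, 60.4, 89.0 and 133 CPM, with close +/+ values and the highest level in the ITD/+ library of batch D. The rise was 0.88 ± 0.12 (adjusted p = 0.0261), with 0.62 in batch C and 1.13 in batch D. An opposite-strand gene model overlaps it, as one overlaps Cdh2, and the strand setting of the counting is not stated, so antisense reads cannot be told apart.

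Gtf2a1, Casp6 and Repin1 completed the set. Gtf2a1 encodes a subunit of the general transcription factor TFIIA (chr12:91555262-91590487, minus strand) and stood at 106, 131, 151 and 215 CPM, a rise of 0.62 ± 0.09 (adjusted p = 0.0261). Casp6 encodes a caspase of the apoptosis pathway (chr3:129901425-129914103, plus strand). It stood at 41.7, 37.2, 61.8 and 59.9 CPM, a rise of 0.63 ± 0.09 (adjusted p = 0.0398). Repin1, a zinc finger gene (chr6:48593883-48599082, plus strand), stood at 5.67, 6.19, 17.8 and 13.9 CPM, a rise of 1.41 ± 0.21 (adjusted p = 0.0398); 7.41% of its 50-base words are shared with an overlapping gene model. For all 3 genes both ITD/+ libraries lay above both +/+ libraries. In Casp6 and Repin1 the ITD/+ library of batch C was the higher of the 2, and in the other 6 genes that of batch D.

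**Figure D3:**
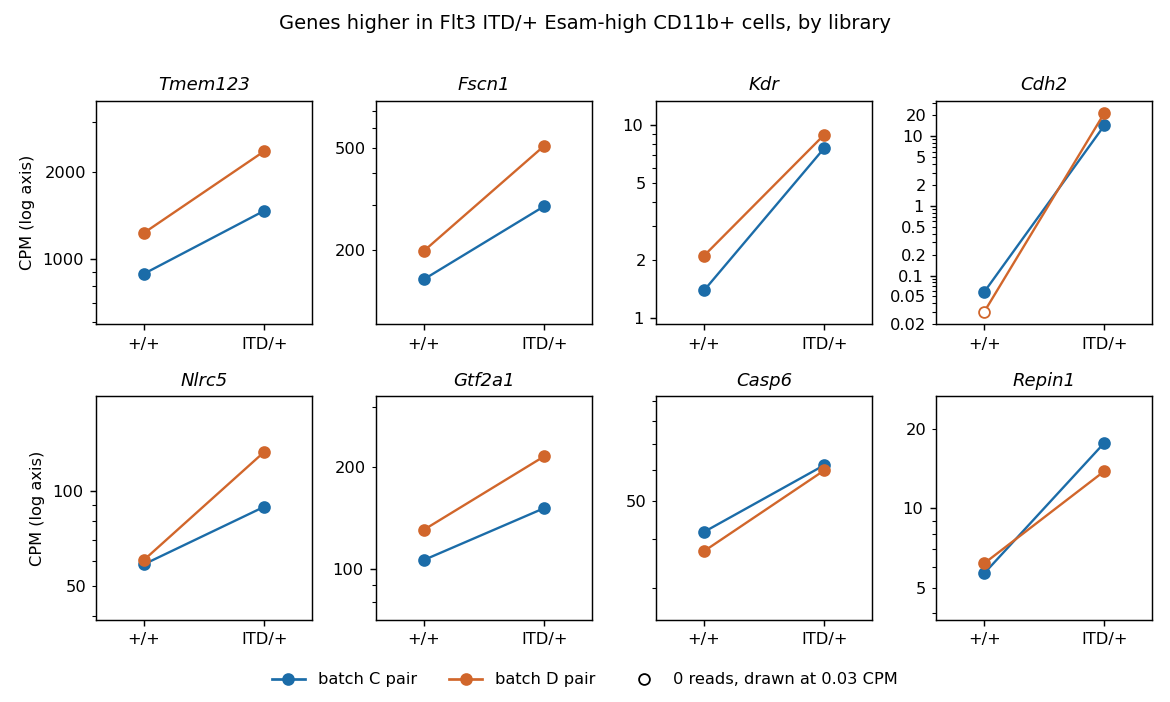
Level (CPM, log axis with its own range in each panel) of the 8 genes that rose, in +/+ and ITD/+ cells. Each point is 1 library and each line joins the pair of 1 batch; both lines go up in every panel, from 58.5 and 60.4 to 89.0 and 133 CPM for Nlrc5.

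The gene that fell, Igkv1-88, rests on 1 library of the Esam-hi cells. This immunoglobulin kappa variable segment (chr6:68862265-68863031, minus strand) had 668 reads in the +/+ library of batch C and 0, 1 and 0 reads in the other 3, and its levels were 38.7, 0, 0.057 and 0 CPM. Its adjusted p was 0.0186. The ranges overlapped, because +/+ batch D had 0 reads, and without batch C the fold change was 0. Summed B cell marker levels were 446, 333, 377 and 286 CPM and summed plasma cell marker levels 491, 536, 403 and 392 CPM, and the part of such cells in this result was not tested. Igkv1-88 was also high in the +/+ batch C libraries of Esam-lo (35.2 CPM), canonical CD8+ (13.1 CPM) and non-canonical CD8+ cells (61.8 CPM). In every other library it was at most 3.04 CPM. It passed as lower in canonical and non-canonical CD8+ cells too (edgeR adjusted p = 0.00526 and 0.0012). The high values thus belong to the +/+ samples of batch C in several subsets. The gene was named after its values were seen.

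Most maturation genes other than these 2 had higher values in ITD/+ cells without passing edgeR's test. The maturation list, like the other lists, was chosen with earlier results of these data known. Its counts beside the shares of all genes are therefore a description and not independent support. Of its 30 genes, 2 rose (Fscn1 and Tmem123) and 0 fell, against 0.0442% and 0.00553% of all genes. At an unadjusted p under 0.05 there were 15 higher and 1 lower, against 3.73% and 2.49% of all genes. DESeq2 called 7 of the 30, all higher, against 64 of 13182 genes tested there. The same share applies to the DESeq2 counts of the lists below. In edgeR 0 of the 30 passed without the pair term or with the Esam-hi and Esam-lo libraries only. The groups did not overlap for 14 members with ITD/+ higher, against 14.6% of all genes, and for 2 with ITD/+ lower, against 15.8%. The list's median log2 fold change was 0.37, against 0 for all genes, with 0.26 in batch C and 0.46 in batch D. Its summed level was 8967, 12700, 10750 and 16020 CPM, so batch D was higher than batch C in both genotypes and the groups overlapped. Immediate early and stress genes went the other way between batches, at 37670, 25710, 37300 and 28360 CPM summed, and their part in these levels was not tested.

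The members with the next smallest p were Cd200, Ccl22 and Icosl. Cd200 encodes a surface ligand whose receptor restrains myeloid cells and stood at 16.8, 26.6, 28.3 and 59.9 CPM, a log2 difference of 0.98 ± 0.16 (adjusted p = 0.0895). Ccl22, a chemokine that attracts Ccr4-bearing T cells, stood at 6.77, 27.8, 27.7 and 56.2 CPM (1.47 ± 0.25, adjusted p = 0.0988). Icosl, the ligand of the T cell costimulator ICOS, stood at 250, 218, 352 and 430 CPM (0.74 ± 0.13, adjusted p = 0.0988). For Cd200 and Icosl the groups did not overlap, while for Ccl22 the +/+ library of batch D lay just above the ITD/+ library of batch C. Cd40, the receptor for T cell help, stood at 92.6, 85.2, 105 and 126 CPM (0.38 ± 0.14, adjusted p = 0.617). Pdcd1lg2, encoding the inhibitory ligand PD-L2, was the 1 lower member, at 42.6, 33.7, 29.3 and 22.6 CPM (-0.55 ± 0.24, adjusted p = 0.770).

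Among antigen presentation genes Nlrc5 alone passed. The list of MHC class I presentation held 17 genes, of which 1 rose (0.0442% of all genes) and 0 fell (0.00553%). Besides Nlrc5, 3 were higher at an unadjusted p under 0.05 (3.73% of all genes). H2-K1, a classical class I heavy chain, stood at 2126, 2271, 2410 and 3157 CPM (0.33 ± 0.09, adjusted p = 0.436). H2-D1 stood at 3863, 3510, 4384 and 4646 CPM (0.30 ± 0.09, adjusted p = 0.563), and B2m, their shared light chain, at 3186, 3413, 3754 and 4486 CPM (0.32 ± 0.13, adjusted p = 0.715). For each of the 3 both ITD/+ libraries lay above both +/+ libraries. Over the 17 genes the groups did not overlap for 8 with ITD/+ higher (14.6% of all genes) and 1 with ITD/+ lower (15.8%). In edgeR with the 4 Esam-hi libraries alone B2m rose beside Nlrc5. H2-K1 and H2-D1 are close relatives, so the split of reads between them is uncertain. The median of the list was 0.05 in batch C and 0.27 in batch D. Of 18 MHC class II presentation genes 0 passed and 0 had an unadjusted p under 0.05, with a median of 0.08, and the groups did not overlap for 8 with ITD/+ higher (14.6% of all genes) and 0 with ITD/+ lower (15.8% of all genes).

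Of 30 interferon-stimulated genes 0 passed the test, with 5 higher (3.73% of all genes) and 0 lower (2.49%) at an unadjusted p under 0.05. Their median was 0.34, with 0.16 in batch C and 0.47 in batch D, and the groups did not overlap for 12 with ITD/+ higher (14.6% of all genes) and 0 with ITD/+ lower (15.8%). Ifit1, an antiviral RNA-binding protein, stood at 4.86, 6.87, 12.3 and 17.1 CPM (1.33 ± 0.49, adjusted p = 0.662). Oasl2, a relative of the antiviral oligoadenylate synthetases, stood at 13.6, 14.5, 20.9 and 33.0 CPM (0.91 ± 0.34, adjusted p = 0.662). For both genes the ITD/+ libraries were the upper 2, and the ITD/+ library of batch D was the highest.

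The pathways downstream of Flt3 held no gene called in the main edgeR fit. In edgeR with the 4 Esam-hi libraries alone Socs2 rose and Dusp7 fell, and with no filter on low counts Dusp7 fell. Flt3 itself stood at 441, 431, 394 and 387 CPM, lower in both ITD/+ libraries by 0.15 ± 0.09 on the log2 scale (adjusted p = 0.910); counts per gene do not separate the mutant from the normal allele. Of 20 STAT5 targets 0 passed and 4 were higher at an unadjusted p under 0.05 (3.73% of all genes). Among them Socs2, a feedback inhibitor of cytokine receptors, stood at 18.5, 34.8, 30.8 and 64.7 CPM (0.82 ± 0.24, adjusted p = 0.486), higher in each pair but overlapping between the groups because batch D was higher in both genotypes. Of 17 MAP kinase feedback genes 0 passed in the main edgeR fit and 1 in DESeq2 (Dusp7). At an unadjusted p under 0.05, 3 were lower (2.49% of all genes) and 0 higher (3.73%), and the median was -0.20. Dusp7, a phosphatase acting on MAP kinases, stood at 21.8, 9.71, 6.95 and 2.91 CPM (-1.68 ± 0.29, adjusted p = 0.0988). Of 26 AKT and mTOR targets 0 passed in edgeR and 1 in DESeq2. At an unadjusted p under 0.05, 1 was higher (3.73% of all genes) and 4 were lower (2.49%).

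Of 25 cytokine receptor genes, Flt3 included, 0 passed. Il2ra, the alpha chain of the IL-2 receptor, stood at 0.752, 2.10, 2.04 and 14.4 CPM (2.23 ± 0.72, adjusted p = 0.595), with the high value in the ITD/+ library of batch D only. Of 40 T cell-directed cytokines and ligands 0 passed in edgeR and 3 in DESeq2 (Ccl22, Icosl and Cxcl16). At an unadjusted p under 0.05, 5 were higher (3.73% of all genes) and 3 lower (2.49%). Cxcl16, a chemokine made as a membrane protein, stood at 91.6, 182, 134 and 279 CPM (0.59 ± 0.11, adjusted p = 0.120). Its pairs gave 0.57 and 0.61, while the groups overlapped through the batch difference.

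Genes of subset identity followed. Of 26 Notch pathway genes 0 passed and 0 had an unadjusted p under 0.05, with a median of 0. Of 20 CD11b+ dendritic cell identity genes 0 passed. Of 41 dendritic cell transcription factors 0 passed in edgeR and 2 in DESeq2 (Spib, which rose there, and Ikzf3, which fell). At an unadjusted p under 0.05, 6 of the 41 were higher (3.73% of all genes) and 2 lower (2.49%). Spib, an Ets-family factor best known from plasmacytoid cells, stood at 47.9, 45.8, 66.0 and 65.1 CPM (0.49 ± 0.09, adjusted p = 0.161), without overlap and with almost the same value in both ITD/+ libraries. Ikzf3, encoding Aiolos, stood at 17.9, 8.42, 9.33 and 2.78 CPM (-1.21 ± 0.25, adjusted p = 0.221). Of 22 Toll-like receptor and signalling genes 0 passed and 0 had an unadjusted p under 0.05, and of 14 BCL2 family genes 0 passed. Of 30 proliferation genes 0 passed, 1 was lower at an unadjusted p under 0.05 (2.49% of all genes), and the median was -0.22.

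Genes of lipid handling included more with lower than with higher values in ITD/+ cells. Of 25 lipid and cholesterol handling genes 0 passed in edgeR and 2 in DESeq2 (Fabp5 and Sqle). At an unadjusted p under 0.05, 3 were higher (3.73% of all genes) and 6 lower (2.49%). Sqle, an enzyme of cholesterol synthesis, stood at 31.7, 43.4, 13.2 and 29.1 CPM (-0.90 ± 0.20, adjusted p = 0.238). Apoe, the apolipoprotein of macrophages, stood at 167, 128, 127 and 80.9 CPM (-0.52 ± 0.12, adjusted p = 0.299). Both were lower in each pair and did not overlap, although the Apoe values of +/+ batch D and ITD/+ batch C were almost equal. Fabp5, a fatty acid-binding protein, went the other way at 14.2, 24.01, 25.4 and 53.7 CPM (1.01 ± 0.18, adjusted p = 0.0998).

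Of 24 monocyte and macrophage genes 0 passed, with 1 higher (3.73% of all genes) and 3 lower (2.49%) at an unadjusted p under 0.05. The lysozyme gene Lyz2 stood at 573, 573, 319 and 355 CPM (-0.76 ± 0.33, adjusted p = 0.764), and its relative Lyz1 at 75.0, 65.3, 37.3 and 36.1 CPM (-0.93 ± 0.23, adjusted p = 0.337). The groups did not overlap for either gene; the 2 genes are close copies, so the split of reads between them is uncertain. Mmp9, a matrix protease from the neutrophil marker list, stood at 123, 107, 35.6 and 30.6 CPM (-1.79 ± 0.40, adjusted p = 0.255). It did not pass in the main fit or in DESeq2. In edgeR it fell with no filter on low counts, with the Esam-hi and Esam-lo libraries only and with the 4 Esam-hi libraries alone. Of 23 adhesion and junction genes Cdh2 alone passed in edgeR, where 0.0442% of all genes rose. Cdh2 and Itgb1 passed in DESeq2. Cdh17, another cadherin, stood at 20.8, 23.1, 2.04 and 8.66 CPM (-2.32 ± 0.69, adjusted p = 0.486), lower where Cdh2 was higher. With the 4 Esam-hi libraries alone Cdh17 fell in edgeR, where 21 of 15570 genes fell. Of 23 chemokine and migration receptor genes 0 passed in edgeR and 1 in DESeq2, and of 15 leukotriene and prostaglandin genes 0 passed. Hpgd, which inactivates prostaglandins, had the smallest p of the latter at 54.6, 26.9, 24.8 and 14.1 CPM (-1.03 ± 0.25, adjusted p = 0.349).

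**Figure D4:**
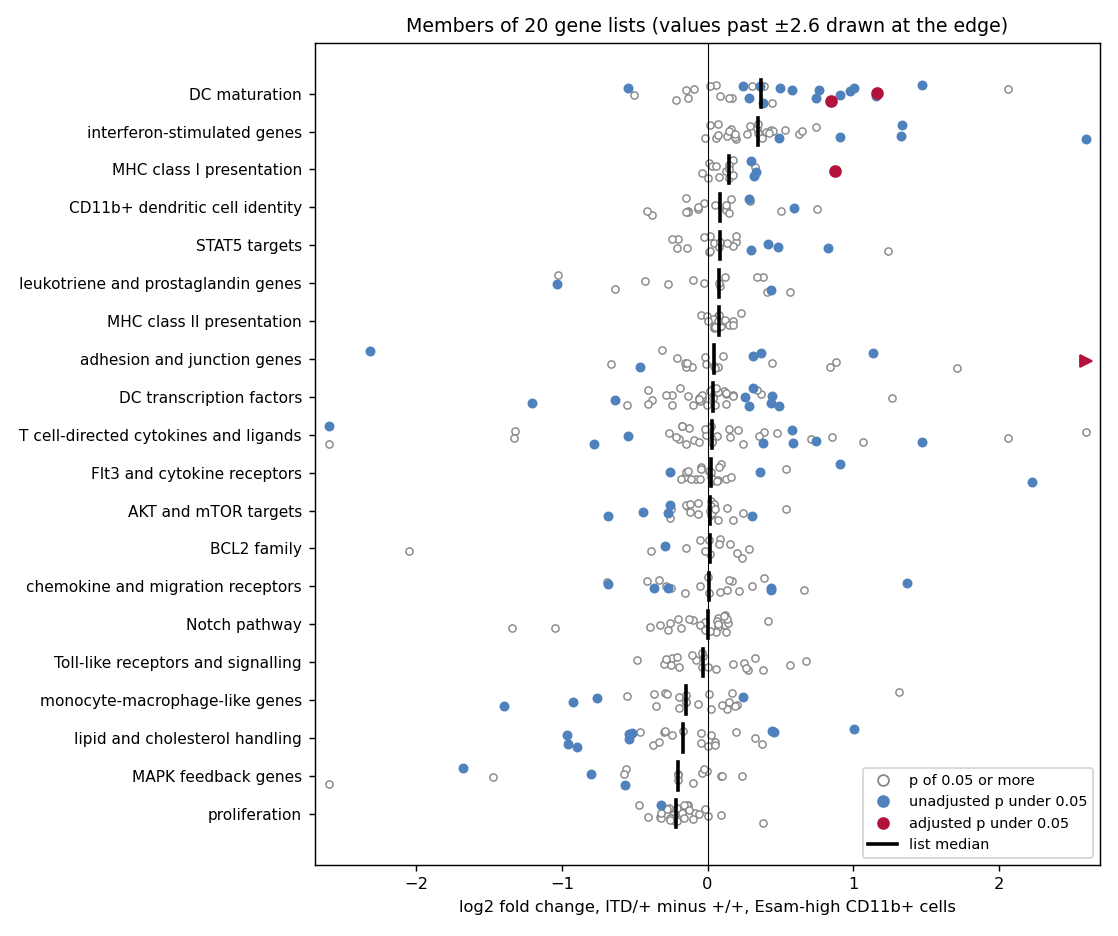
Log2 fold change (ITD/+ minus +/+) of the tested members of 20 gene lists, 1 point per gene, with list medians as bars and values past 2.6 drawn at the edge. Red points are the 4 called members (Fscn1, Tmem123, Nlrc5 and Cdh2); the medians run from -0.22 for proliferation to 0.37 for dendritic cell maturation.

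The genes nearest to the threshold without passing it were 9 with an adjusted p between 0.05 and 0.1, of which 8 were higher. Besides Cd200, Ccl22, Icosl, Fabp5 and Dusp7 they were Dapk1, Poglut1, Dzip3 and Tspan3. All 9 passed in DESeq2, as did Slc16a6 and Cd24a. Dapk1, a calmodulin-regulated kinase of cell death pathways, stood at 14.6, 11.8, 31.1 and 25.7 CPM (1.12 ± 0.17, adjusted p = 0.0590). Poglut1, which adds glucose to Notch receptors, stood at 58.6, 63.9, 83.4 and 109 CPM (0.64 ± 0.10, adjusted p = 0.0745). Neither gene overlapped between the groups. Lower genes were ranked among those with at least 5 CPM in the higher group and a symbol that is not a predicted gene model. Other than Igkv1-88 and Dusp7, the smallest p there belonged to the transporter gene Slc16a6, at 18.3, 38.7, 8.76 and 23.6 CPM (-0.87 ± 0.16, adjusted p = 0.150). Cd24a, a glycosylated surface protein, followed at 50.6, 47.3, 19.6 and 34.1 CPM (-0.91 ± 0.18, adjusted p = 0.190).

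The genes that rose were then read in the other 4 subsets, which have their own +/+ libraries. Esam-lo cells came from the same batches C and D, and both CD8+ subsets included these batches. Plasmacytoid cells came from batches A and B. Agreement between subsets of the same batch is therefore not independent replication, and whether such subsets share mice is not stated. The share of all genes with the same direction as in Esam-hi cells was not counted, so counts of direction are a description only. The same direction was found for 8 of 8 genes in Esam-lo cells, 7 in canonical CD8+ cells, 8 in non-canonical CD8+ cells and 6 in plasmacytoid cells. Of these, 2, 5, 7 and 1 passed the test, beside 9 (0.0497%), 223 (1.23%), 866 (4.79%) and 45 (0.249%) called genes of all tested. Fscn1 passed in all 4, with 1.60 ± 0.13 in Esam-lo, 1.14 ± 0.10 in canonical CD8+, 0.98 ± 0.10 in non-canonical CD8+ and 1.66 ± 0.15 in plasmacytoid cells. Tmem123 passed in 3 (0.56 ± 0.08, 0.91 ± 0.07 and 0.38 ± 0.07 in the same order) and stood at -0.02 ± 0.08 in plasmacytoid cells. Nlrc5 passed in none of them, with values from 0.29 ± 0.10 to 0.51 ± 0.12. Cdh2 passed in both CD8+ subsets, and its ITD/+ levels were 5.80 to 21.0 CPM in canonical CD8+ cells, 0.171, 4.28 and 7.22 CPM in non-canonical CD8+ cells (the lowest from 3 reads), 1.07 to 5.82 CPM in Esam-lo cells and 0.116 to 0.201 CPM in plasmacytoid cells. Kdr was at 1.39 and 2.10 CPM in +/+ Esam-hi cells but at 44.8 to 83.0 CPM in +/+ plasmacytoid cells, so its ITD/+ level in Esam-hi cells stayed under those.

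**Figure D5:**
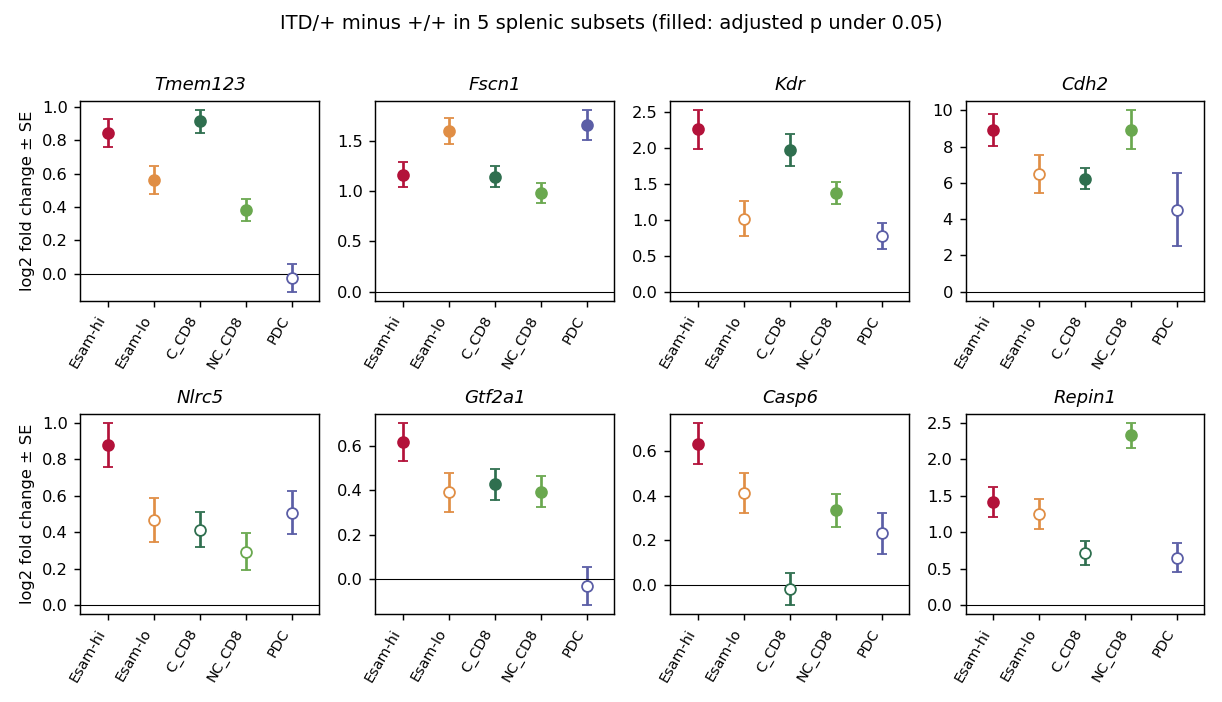
Log2 fold change ± SE (ITD/+ minus +/+) of the 8 genes in 5 sorted subsets, each from the fit over all 24 libraries. Filled points have an adjusted p under 0.05; Fscn1 is filled in all 5 subsets and Nlrc5 only in Esam-hi cells (0.88 ± 0.12).

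The difference in ITD effect between subsets was tested for all genes. For the ITD effect in Esam-hi against Esam-lo cells, which share batches C and D, 0 of 18093 genes passed in edgeR (930 at an unadjusted p under 0.05, 5.14%) and 0 in DESeq2 (613 unadjusted). For Nlrc5 this difference was 0.41 ± 0.17 (adjusted p = 0.928), so a larger effect in Esam-hi cells was not shown. Against the mean of the other 4 subsets, 0 passed in edgeR (779 unadjusted, 4.31%) and 3 passed in DESeq2. Those 3, named after their values were seen, were Socs2, Itgb3 and Cd200.

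Socs2 had the smallest p, with an effect in Esam-hi cells below the mean of the others by 1.96 ± 0.28 on the log2 scale (adjusted p = 0.271 in edgeR and 5.2e-05 in DESeq2). Its effect was 0.82 ± 0.24 in Esam-hi cells, 1.93 ± 0.28 in Esam-lo, 0.77 ± 0.20 in canonical CD8+, 2.98 ± 0.24 in non-canonical CD8+ and 5.45 ± 0.33 in plasmacytoid cells. The starting levels differed as well: +/+ Esam-hi cells had 18.5 and 34.8 CPM, +/+ Esam-lo cells 3.72 to 6.50 CPM and +/+ plasmacytoid cells 1.12 to 1.59 CPM. The ITD/+ levels of Esam-hi cells (30.8 and 64.7 CPM) and plasmacytoid cells (44.1 to 76.1 CPM) overlapped. Itgb3, the integrin beta 3 chain, differed by -1.23 ± 0.19 (adjusted p = 0.286 in edgeR, 0.00057 in DESeq2), with -0.45 ± 0.17 in Esam-hi cells and 2.40 ± 0.23 in canonical CD8+ cells. Cd200 differed by 1.09 ± 0.18 (adjusted p = 0.303 in edgeR, 0.00057 in DESeq2), with 0.98 ± 0.16 in Esam-hi cells and -0.63 ± 0.14 in non-canonical CD8+ cells.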

How the data were processed

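Spleen dendritic cell subsets were sorted by flow cytometry, RNA was isolated with a PicoPure kit (in part after Trizol) and cDNA was made with a SMART-seq v4 kit, per the labels' protocols. The authors deposited raw read counts per Ensembl gene; bcl2fastq 1.8.4, Bowtie2 (listed as version 0.4), DESeq2 1.8.2 and the mm10 build are named per the submitters' processing notes. For the counter, annotation and strand setting nothing is given in the sources used here, and the authors' normalized counts were not used.

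Counts were tested with edgeR 4.0.16 (R 4.3.3; TMM scaling, filterByExpr at a minimum count of 10, 18093 of 39017 genes kept, glmQLFit and glmQLFTest) on all 24 libraries, with 1 term for each of the 12 pairs of libraries sharing subset and batch and 1 ITD/+ coefficient for each of the 5 subsets, leaving 7 residual degrees of freedom. Spread is therefore shared between the 5 subsets, and p-values and SEs rest on the spread of all 24 libraries, not of the Esam-hi libraries alone. Each SE is the absolute log2 fold change divided by the square root of the test's F value. The fit treats the 12 pairs as independent, although subsets share batches. A gene was called at a Benjamini-Hochberg adjusted p under 0.05. Calls given for edgeR without a further setting are those of this main fit. CPM use library totals; differences of single pairs are log2 CPM with a prior count of 2. The batch letter in the labels pairs the libraries; the deviations of same-batch Esam-hi libraries from their group means correlated at r = 0.32. Replicates of 1 genotype differed by more than sampling noise (chi-square per degree of freedom of 24.3 and 20.1). The script was tested on simulated data. DESeq2 1.42.0, other scaling, other filters, fits without the pair term and smaller sets of libraries were alternatives.

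Gene symbols and coordinates come from GENCODE M21 on GRCm38, the same assembly as mm10. Named genes were those called with the same direction in both pairs and at least 5 CPM in the higher group (at most 15 each way by fold change, and 6 each way by level), Flt3 and the markers; members with the smallest p of each list, genes with an adjusted p up to 0.1, lower genes and genes of the subset contrasts were added after the data were examined. The members and lists were chosen with earlier results of these data known.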

Additional observations from a re-analysis of the deposited data

How the results depend on the processing

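The count of 9 called genes in Esam-hi cells depended on the fit. It was 0 with no replicate block (303 at an unadjusted p under 0.05), 64 in DESeq2 with the block (52 rose and 12 fell, 8 of the 9 among them), 31 with no filter on low counts (26 rose and 5 fell, all 9 among them), 3 with Esam-hi and Esam-lo libraries only (1 rose and 2 fell), 103 with the 4 Esam-hi libraries alone (82 rose and 21 fell, 1 residual degree of freedom) and 0 without either batch, and the cause was not tested. RLE size factors and a minimum count of 50 gave 9 each. The log2 fold changes of the 8 genes that rose kept their direction in each of the 9 alternatives, for example 0.97 to 1.36 for Fscn1, 0.75 to 0.94 for Tmem123, 0.62 to 1.13 for Nlrc5 and 7.80 to 11.6 for Cdh2. On the maturation list 7 members rose in DESeq2, 5 with no filter, 10 in the fit on 4 libraries and 0 with no replicate block, without either batch or with Esam-hi and Esam-lo libraries only, so Fscn1 and Tmem123 kept their call in 5 of 9 alternatives. The contrast with Esam-lo cells gave 0 under each alternative (267 to 1010 unadjusted), and the contrast with the mean of the other 4 subsets gave 0 except for 3 in DESeq2 and 3 with no filter (Socs2, Itgb3 and Cd200 in both). With 2 pairs, 1 library of each genotype in a batch, a difference that did not pass is not shown to be absent. Library totals of 16161616 to 17689913 counts put 1 read at 0.057 to 0.062 CPM.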
